A study of Felis catus with 2 samples.

Results

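Nuclear-encoded genes of the mitochondrial respiratory chain were described in the iridocorneal angle of a PCG-affected cat and a normal cat. PCG is primary congenital glaucoma, a raised intraocular pressure that follows from malformed outflow pathways for aqueous humor. Members were selected by gene symbol, as rows of the deposited table that carry a single name. The names were of the NDUFA, NDUFB, NDUFC, NDUFS, NDUFV, SDH, UQCR, CYC1, CYCS, COX4 to COX8 or ATP5 type. The rule itself used no measured value, but it was chosen with earlier results of these data known. This gave 64 members among the 32065 loci of the table, each with its own name on 1 row only.

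The normal library came from a healthy cat that was not related to the affected one, and both cats were 2 months old. The PCG cats of the study came from a colony founded by Siamese cats, and the affected animals that were genotyped carried a 4-base insertion in both copies of LTBP2, but the labels give no genotype, breed or sex for either cat sequenced. Each RNA sample mixes cells of the outflow tissue, the ciliary body and the wall of the eye next to them. As each condition has a single library, no difference can be tested, so all values below describe these 2 libraries, and a difference between cats, between families or between dissections cannot be told apart from disease.

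The respiratory chain sits in the inner mitochondrial membrane. Complexes I and II feed electrons from NADH and succinate to ubiquinone, complex III hands them to cytochrome c, and complex IV passes them to oxygen. Complexes I, III and IV pump protons while they do so, and complex V, the ATP synthase, uses the returning protons to make ATP. Each of these complexes except complex II combines a few subunits from the mitochondrial genome with many from the nucleus, and the nuclear genes are usually expressed in step with one another. In the eye the pumping epithelium of the ciliary body and the photoreceptors are known for a high density of mitochondria.

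Values are FPKM, the fragments per kilobase of exon and 1000000 mapped fragments, which allows levels to be compared between genes per length. The difference between the libraries is given as a log2 ratio, log2 of (affected FPKM + 1) over (normal FPKM + 1), so negative values are lower in the affected cat. Wherever a pair of levels is given, the normal cat comes first. Of the 64 members, 61 reached at least 1 FPKM in at least 1 library and were used for counts and medians, as were 16676 of all loci. The spans of 19 of the 64 members overlap another named locus. Whole fragments behind the low values of unnamed loci put 1 FPKM at about 71.1 fragments per kilobase of effective length for the normal cat and 67.3 for the affected cat. Counting error is therefore small for these genes, with 95% limits of the log2 ratio between 0.0179 and 0.253 either way for a transcript with 1 kilobase of effective length, but it does not include variation between cats.

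Summed levels of cell type markers differed between the 2 libraries. Markers of ciliary epithelium were present in both, with a summed level of 929 FPKM in the normal cat and 1841 FPKM in the affected cat, and OPTC, the ciliary body proteoglycan opticin, had the highest mean among them, with 351 and 1235 FPKM. Without OPTC the other 8 markers summed to 578 and 606 FPKM, and they did not share a direction, since CA2, a carbonic anhydrase, had 370.2 and 112 FPKM and SLC4A4, a bicarbonate cotransporter, had 43.0 and 32.6 FPKM. Photoreceptor markers summed to 307 and 1222 FPKM and those of macrophages and leukocytes to 123 and 362 FPKM, both higher in the affected library. The complement genes C1QA, C1QB and C1QC made up 90.2 and 324 FPKM of the latter sum, and the other 6 markers summed to 32.8 and 37.8 FPKM. Of the 8 markers used 5 were higher, CD163 and CD14 besides the C1Q genes, and 3 were lower, AIF1, CSF1R and PTPRC. These single markers, apart from OPTC and C1QA, were chosen after their values were seen. Markers of corneal and conjunctival epithelium summed to 560.3 and 21.0 FPKM, vascular endothelium to 124 and 44.3 FPKM, pericytes to 111 and 47.3 FPKM and pigment cells to 2371 and 1644 FPKM, all lower in the affected library. Smooth muscle markers summed to 1287 and 1114 FPKM. The markers found of skeletal muscle summed to 13.7 and 39.0 FPKM, with MYOG at 0 in both, and those of red blood cells to 8.24 and 0.748 FPKM. Single-name rows were found for only 9 of 13 skeletal muscle and 4 of 7 red blood cell markers. ACTA1, HBA1 and HBB were among those not found, so these low sums are not read as scarcity of the cells. In such bulk tissue fewer cells of a type and less RNA per cell cannot be told apart. The part of these differences in the respiratory chain values was not tested.

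Most members were close to equal in both libraries, with a slight shift to lower values in the affected cat. The median log2 ratio of the 61 members was -0.12, against -0.0047 over all loci. Lower values in the affected cat were seen for 38 members, or 62.3%, where 50.3% of all loci were lower, and higher values for 23 members, where 49.7% of all loci were higher. The interquartile range of the members ran from -0.27 to 0.06, while that of all loci ran from -0.43 to 0.40. Within 1.5-fold of each other were 52 of 61 members, or 85.2%, against a background of 63.7% of all loci.

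Among loci of similar abundance the shift was of the same kind. Of the 45 members with a mean of at least 50 FPKM, 29 were lower in the affected cat, or 64.4%, against 45.7% of the 1759 loci above that mean, and 16 were higher, against 54.3%. Within 1.5-fold were 41 of these 45 members, against 67.7%. Their median log2 ratio was -0.18, and that of those loci was 0.06. Members are not independent replicates, since they share the library, and these counts are a description of 1 cat against another.

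**Figure D1:**
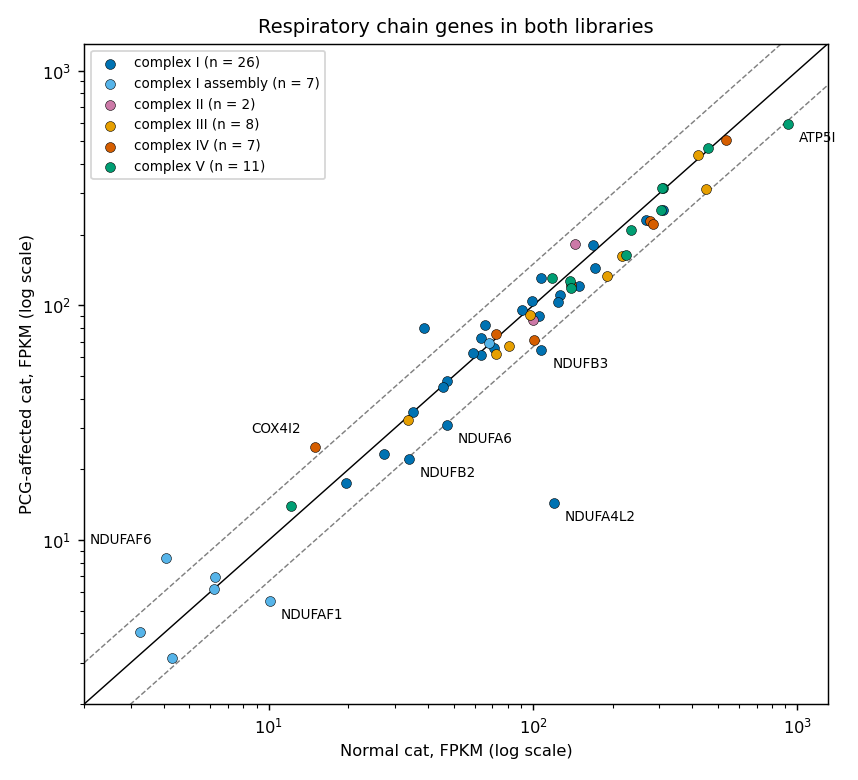
FPKM of each member in the normal (x axis) and the PCG-affected cat (y axis), both on log scales, coloured by complex as named by gene symbol. The solid line marks equal values and the dashed lines a 1.5-fold difference in FPKM, and NDUFA4L2 with 119 and 14.4 FPKM lies farthest from the solid line. NDUFB5, COX6A2 and COX6B2, listed at 0 in at least 1 library, are not drawn.

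At least 1.5-fold higher in the affected cat were 3 members, against a background of 17.6% of all loci, and at least 1.5-fold lower were 6, against 18.7%. NDUFAF6 and COX4I2 were among the higher ones, and the lower ones were NDUFA4L2, NDUFAF1, NDUFB3, ATP5I, NDUFB2 and NDUFA6. A 2-fold difference was reached by 1 member upward, where the background was 8.14%, and by NDUFA4L2 downward, where it was 8.75%. Rescaling of the libraries left no member 2-fold higher. The shares of members past these folds were thus below those of all loci in each direction. The same held for other sets of abundant housekeeping transcripts, since 97.9% of the cytosolic and 90.5% of the mitochondrial ribosomal proteins used were within 1.5-fold, and 61.7% of the cytosolic ones were lower in the affected cat.

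These transcripts were abundant in both cats. The median member stood at 101 FPKM in the normal cat and 90.1 FPKM in the affected cat, against 8.46 and 8.37 FPKM for all loci past the minimum. In each library 44 of the 61 members exceeded the 90th percentile of those loci. Summed over the members, the level was 9068 FPKM or 1.40% of the normal library, and 7930.2 FPKM or 1.18% of the affected one. The affected sum was 0.875 of the normal one, and ATP5I alone made up 29.0% of the net difference. Without ATP5I the ratio of the sums was 0.901. The order of the members was largely shared, with a Spearman rho of 0.95 and a Pearson r of 0.96 of log2(FPKM + 1) across the 61 genes, which are not independent replicates and share their libraries. Among all loci the same measures were 0.88 and 0.89. The 3 highest members were ATP5I, COX5B and ATP5B in both cats, in that order.

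Complex I, the NADH dehydrogenase, was represented by 27 members by symbol, of which 26 passed the minimum. Their median log2 ratio was -0.13, with 10 higher and 16 lower in the affected cat. The core subunits carry the flavin and the iron-sulfur clusters, and they did not share a direction, whereas the accessory subunits around them were mostly lower. The median was 0.10 over the 6 core subunits and -0.15 over the 18 accessory subunits used. With so few genes this difference between roles is a description, and no test was made.

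The core subunits described here stayed within 1.5-fold. NDUFV1, which binds NADH and the flavin, had 65.6 FPKM in the normal cat and 82.7 FPKM in the affected cat, and NDUFS7, carrier of the last iron-sulfur cluster before ubiquinone, had 63.6 and 72.7 FPKM. NDUFV2 had 35.04 and 35.12 FPKM and was equal within counting error. NDUFS3 was lower, with 105 and 90.1 FPKM, as was NDUFS1, the largest core subunit, with 19.6 and 17.6 FPKM. NDUFS1 was the lowest of these core subunits in each library, and between it and NDUFS3 the transcript levels spanned 5.37-fold in the normal cat.

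Among accessory subunits NDUFC1, a small protein of the membrane arm, had the highest mean. It was at 309 FPKM in the normal cat and 255 FPKM in the affected cat. Its span overlaps that of MGARP, a mitochondrial protein, which was at 317 and 98.7 FPKM, so the neighbour differed far more than NDUFC1 itself. NDUFS5 had 268 and 230.3 FPKM, NDUFA2 172 and 144 FPKM, and NDUFB7 149 and 120.4 FPKM, each somewhat lower in the affected cat.

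The accessory subunits past 1.5-fold were all lower in the affected cat. NDUFB3, a single-pass protein of the membrane arm, was at 108 FPKM in the normal cat and 64.6 FPKM in the affected cat, a log2 ratio of -0.73. NDUFA6, which binds the mitochondrial acyl carrier protein, had 47.0 and 30.9 FPKM, and NDUFB2, also of the membrane arm, had 34.0 and 22.2 FPKM. Both had a log2 ratio of -0.59, just past the threshold. Of the 8 NDUFB and NDUFC genes used, 6 were lower, with a median of -0.19, and the exceptions were NDUFB9, with 107 and 130.3 FPKM, and NDUFB4, with 91.1 and 95.4 FPKM. NDUFB6 had 71.1 and 65.7 FPKM, and NDUFB11 had 45.8 and 45.0 FPKM, equal within counting error.

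Other accessory subunits of complex I differed little. NDUFA12, NDUFA10 and NDUFA5 had log2 ratios of 0.02, -0.04 and 0.08, with levels between 47.1 and 63.2 FPKM in the normal library. NDUFS4, which is needed late in assembly, had 98.9 and 104 FPKM. NDUFA8 had 126 and 111 FPKM, and NDUFV3 had 27.3 and 23.3 FPKM. NDUFA1 was at 168 FPKM in the normal cat and 181 FPKM in the affected cat, but this row needs care. NDUFA1 is an X-linked gene in mammals, and the row lies on chromosome A1 with a span of only 213 bases, which leaves an effective length of 38 bases and about 455 and 464 fragments. NDUFB5 was listed at 0 in both libraries, on an unplaced scaffold where its neighbours ACTL6A and MRPL47 were at 0 as well, so its 0 is not read as absence.

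**Figure D2:**
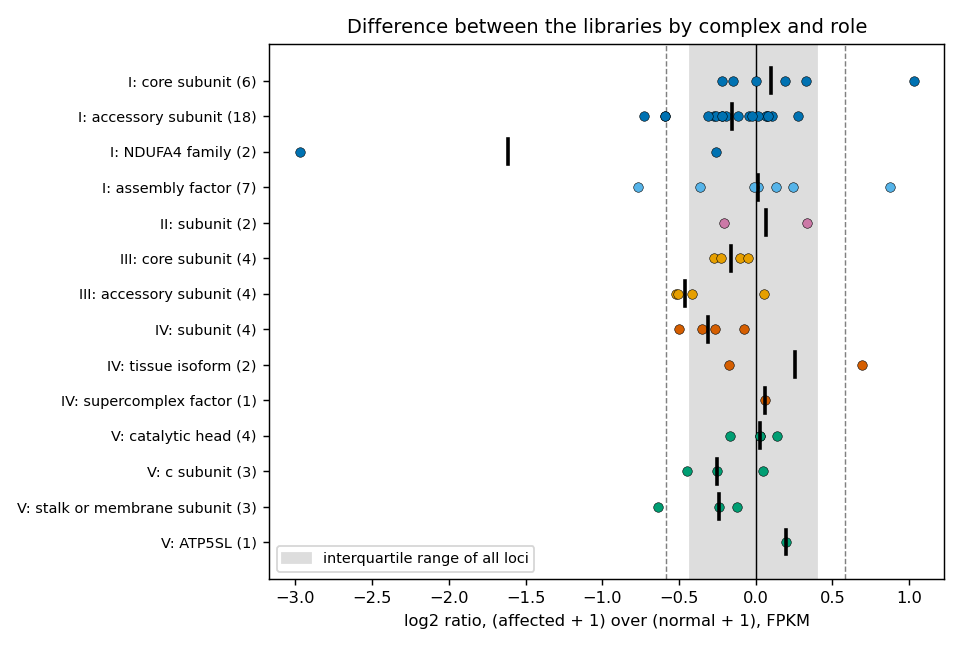
Log2 ratio of each member past the minimum (points), grouped by complex (Roman numeral) and role, with the number of genes in parentheses and the median as a black bar. The grey band is the interquartile range of all loci, from -0.43 to 0.40, and the dashed lines mark 1.5-fold. Most points lie in the band, and NDUFA4L2 at -2.97 lies farthest from 0.

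NDUFA4 and its paralog NDUFA4L2 carry complex I names, but NDUFA4 is now counted as a subunit of complex IV. NDUFA4L2 is known as a gene induced by hypoxia-inducible factors and as a transcript of pericytes, the contractile cells around capillaries. It was the member that differed most. Its level was 119 FPKM in the normal cat and 14.4 FPKM in the affected cat, so the normal value was 8.31 times the affected one. The log2 ratio of -2.97 was lower than that of all but 0.522% of loci, and the counting limits at 1 kilobase of effective length are 0.0959 either way. The locus lies on chromosome B4 from 86015950 to 86020409, and no other named locus overlaps that span.

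NDUFA4 itself was at 124 FPKM in the normal cat and 103 FPKM in the affected cat, a log2 ratio of -0.26. In the normal cat the paralogs were nearly equal, and NDUFA4L2 made up 49.1% of their summed FPKM. In the affected cat it made up 12.2%. The difference in the summed level of the pair, 243 against 118 FPKM, came mainly from NDUFA4L2.

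Pericyte markers were lower alongside NDUFA4L2. All 7 markers were listed, none of them at 0, with a median of -0.99. At least 1.5-fold lower in the affected cat were 5, against a background of 18.7% of all loci. None were higher by that fold, where the background was 17.6%. KCNJ8, among the lower ones, and CSPG4, with 1.20 and 0.481 FPKM, passed the minimum through the normal library alone. PDGFRB, the receptor that recruits pericytes, had 37.4 FPKM in the normal cat and 21.5 FPKM in the affected cat, and RGS5, named here after its values were seen, had 37.6 and 4.70 FPKM. KCNJ8 and ABCC9, the subunits of the vascular ATP-sensitive potassium channel and likewise singled out afterwards, had 5.01 and 0.296 FPKM and 9.71 and 2.36 FPKM. NOTCH3 was the exception, at 11.9 and 14.6 FPKM. The part of pericyte content in the NDUFA4L2 value was not tested.

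Genes known to be induced by hypoxia did not share a direction. In a list of 19 such genes, written after the NDUFA4L2 value had been seen, 14 were found and used, with a median of -0.07. At least 1.5-fold lower were 5 of them, against a background of 18.7% of all loci, and 1 was higher by that fold, against 17.6%. LOX, a collagen cross-linking enzyme, had 27.4 and 5.71 FPKM, and P4HA1, a collagen prolyl hydroxylase, had 118 and 43.4 FPKM. NDRG1 went the other way with 59.8 and 197 FPKM, while VEGFA was nearly equal with 32.8 and 30.3 FPKM.

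**Figure D3:**
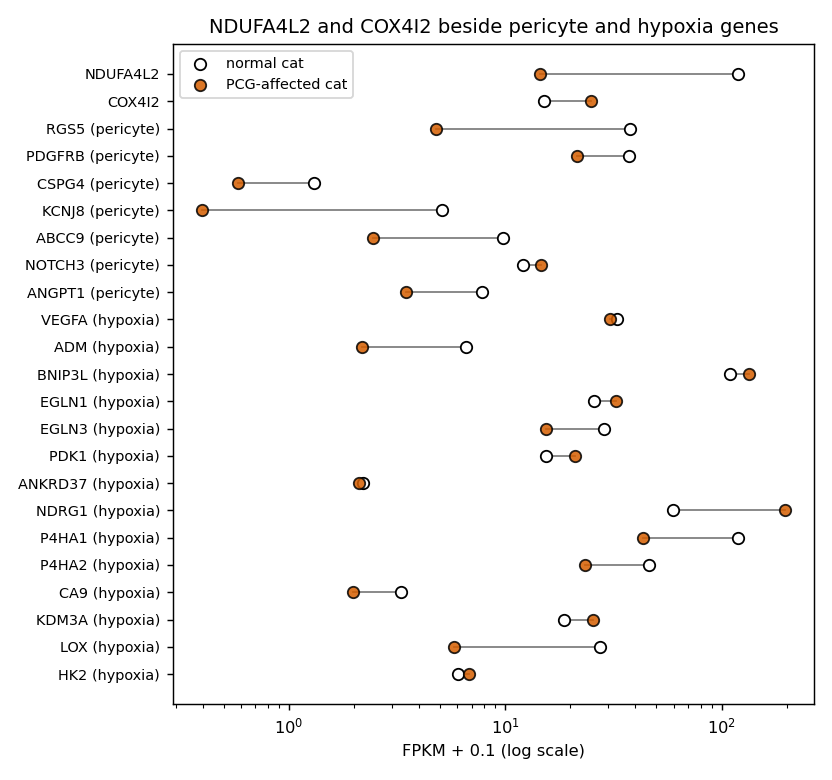
FPKM + 0.1 on a log scale for NDUFA4L2, COX4I2, the 7 pericyte markers and the 14 hypoxia-induced genes used, with open circles for the normal and filled circles for the PCG-affected cat. NDUFA4L2 and 6 of the 7 pericyte markers are lower in the affected cat, COX4I2 is higher, and the hypoxia-induced genes lie on either side.

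Assembly factors of complex I act on intermediates and are not part of the finished enzyme. The 7 NDUFAF genes were far less abundant than the subunits, with a median of 6.21 FPKM in the normal cat and 6.16 FPKM in the affected cat, and their median log2 ratio was 0.01. NDUFAF3, which works with NDUFAF4 on an early intermediate, had the highest listed level, with 68.35 and 69.04 FPKM, but its span overlaps those of IMPDH2 and QRICH1, and the part of that overlap in the level was not tested. NDUFAF4 had 4.31 and 3.14 FPKM.

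The factors past 1.5-fold went opposite ways. NDUFAF6, related to squalene and phytoene synthases, had 4.09 FPKM in the normal cat and 8.36 FPKM in the affected cat, a log2 ratio of 0.88. NDUFAF1, a chaperone of the membrane arm, had 10.1 and 5.53 FPKM, a log2 ratio of -0.77. The NDUFAF1 span overlaps that of NUSAP1, a spindle protein of dividing cells, which was lower too, with 14.4 and 7.89 FPKM. NDUFAF5, NDUFAF7 and NDUFAF2 had log2 ratios of 0.13, -0.01 and 0.25. Levels were lowest here, and counting limits at 1 kilobase of effective length reached 0.253.

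Complex II, succinate dehydrogenase, is shared with the tricarboxylic acid cycle and is built from nuclear genes only. Single-name rows were found for 2 of its 4 subunits, and these differed in opposite directions. SDHC, a membrane anchor that binds heme, had 144 FPKM in the normal cat and 183 FPKM in the affected cat, and SDHB, the iron-sulfur subunit, had 99.9 and 86.3 FPKM. Their log2 ratios were 0.34 and -0.21.

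Complex III, the cytochrome bc1 complex, was lower in nearly all of its members. Of 8 genes 7 were lower in the affected cat, none by 1.5-fold, with a median log2 ratio of -0.25. The 4 members of the core proteins and electron carriers were all lower, though UQCRFS1 was equal within counting error. UQCRC1 and UQCRC2, the core proteins that face the matrix, had 72.5 and 61.9 FPKM and 81.2 and 67.0 FPKM. CYC1, which is cytochrome c1, had 97.6 and 91.0 FPKM, and UQCRFS1, the Rieske iron-sulfur protein, had 33.5 and 32.3 FPKM.

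The small accessory subunits of complex III held the largest differences. UQCR10 had 451 FPKM in the normal cat and 314 FPKM in the affected cat, UQCRB had 190 and 134 FPKM, and UQCRQ had 217 and 162 FPKM, with log2 ratios of -0.52, -0.50 and -0.42. UQCRH, the acidic hinge protein next to cytochrome c1, was the exception with 420.03 and 435 FPKM. Its span overlaps that of LRRC41, at 48.6 and 60.0 FPKM. In the affected cat UQCRH was therefore the highest member of complex III, whereas UQCR10 was the highest in the normal cat.

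Complex IV, cytochrome c oxidase, had 9 members by symbol, of which 7 passed the minimum, with a median log2 ratio of -0.18 and 5 lower. COX5B, a zinc-binding subunit, had the highest level of the complex with 536 FPKM in the normal cat and 508 FPKM in the affected cat. COX5A, a subunit on the matrix side, had 101 and 71.2 FPKM and the lowest log2 ratio, -0.50. COX7B had 283 and 222 FPKM. COX4I1, COX6A1, COX6B1, COX6C, COX7C and COX8A, the other usual nuclear subunits, were not among the single-name rows and were not analysed here.

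Several subunits of complex IV have isoforms that replace each other between tissues. COX4I2, the isoform known from lung and from smooth muscle and pericytes, is itself responsive to oxygen. It was at 14.98 FPKM in the normal cat and 24.8 FPKM in the affected cat, a log2 ratio of 0.69, opposite in direction to NDUFA4L2 and to 6 of the 7 pericyte markers. Smooth muscle markers gave no single direction, with 3 of 7 higher in the affected cat and a median of -0.41. The most abundant of them, ACTA2, had 600.0 and 699 FPKM. Since COX4I1 was not analysed here, the share of COX4I2 in its family is unknown.

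The proportions within the COX7A family were close between the cats. COX7A1, the isoform typical of heart and skeletal muscle, was abundant in the angle, with 139 FPKM in the normal cat and 123 FPKM in the affected cat. It made up 28.4% and 28.6% of the summed COX7A1, COX7A2 and COX7A2L level. COX7A2, the widely expressed isoform, had 277 and 229.9 FPKM, and COX7A2L, which joins complexes III and IV into supercomplexes, had 72.6 and 75.8 FPKM. By contrast COX6A2, another heart and skeletal muscle isoform, was listed at 0 in the normal cat and 0.505 FPKM in the affected cat. COX6B2, known from testis, was listed at 0 and 0.509 FPKM. Both were below the minimum in both libraries. The skeletal muscle markers found were low except CKM, the muscle creatine kinase, with 8.40 and 33.0 FPKM.

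**Figure D4:**
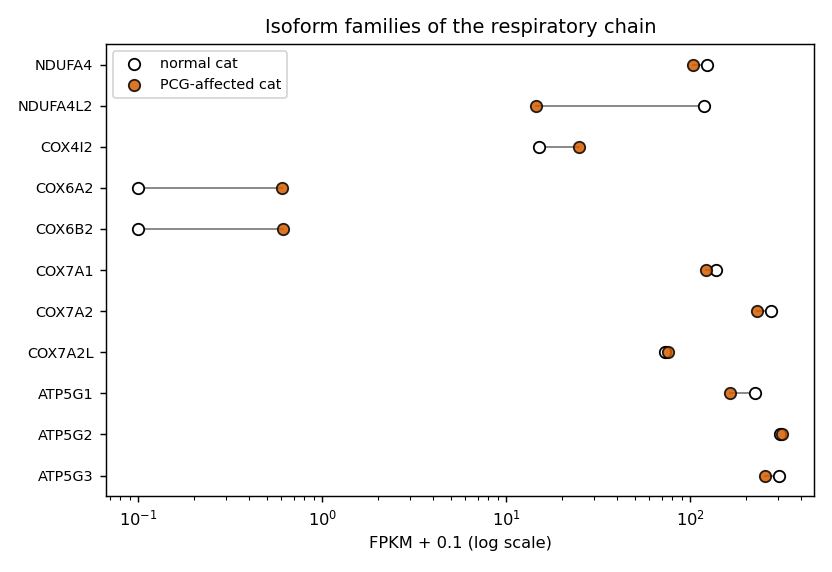
FPKM + 0.1 on a log scale for members of isoform families, with open circles for the normal and filled circles for the PCG-affected cat. COX7A1, COX7A2 and COX7A2L lie close together between the cats, NDUFA4L2 differs with 119 and 14.4 FPKM, and COX6A2 and COX6B2 lie near 0 in both.

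Among the members analysed, complex V had the highest summed level of the complexes in both cats. Its 11 members summed to 3172 FPKM in the normal cat and 2714 FPKM in the affected cat. This ranking depends on the rows listed, which held 10 of 15 usual subunits of complex V but 4 of 10 of complex IV. The median log2 ratio of complex V was -0.12, with 5 members higher and 6 lower. The 4 genes of the catalytic head summed to nearly the same level, 1122 and 1123 FPKM, and ATP5D among them was lower in the affected cat. ATP5B, the catalytic beta subunit, had 457 and 467 FPKM, and ATP5A1, its alpha partner, had 311 and 317 FPKM. ATP5C1, the rotating gamma subunit, had 118 and 130.3 FPKM, while ATP5D, the delta subunit of the central stalk, had 235 and 209 FPKM, a log2 ratio of -0.17.

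ATP5I, subunit e, which takes part in joining synthases into dimers, was the highest member of all in each library. It was at 924 FPKM in the normal cat and 595 FPKM in the affected cat, a log2 ratio of -0.64. The other members grouped with it, of the stalk and membrane part, were lower by less, ATP5F1 with 138 and 127 FPKM and ATP5J with 139.6 and 118 FPKM. ATP5SL carries a synthase name but is now known as a complex I assembly protein, and it was at 12.1 and 14.0 FPKM.

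The genes ATP5G1, ATP5G2 and ATP5G3 encode the same mature c subunit of the membrane ring behind different import signals. Together they had 835 FPKM in the normal cat and 736 FPKM in the affected cat. ATP5G2 was nearly equal with 306 and 317 FPKM, ATP5G3 had 304 and 255 FPKM, and ATP5G1, the copy most often linked to changes in energy demand, had 225 and 164 FPKM. The share of ATP5G1 in the sum was 26.9% in the normal and 22.3% in the affected cat, while that of ATP5G2 was 36.7% and 43.0%. The span of ATP5G2 overlaps those of several loci, among them 1 without a symbol at 363 and 688 FPKM.

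Genes that build, feed or accompany the chain were compared with the same measures. None of these lists had a median as far from 0 as 1.5-fold. For the counts past 1.5-fold in these lists, the background over all loci was 17.6% higher and 18.7% lower. Mitochondrial ribosome proteins, which translate the mitochondrial part of the chain, had a median log2 ratio of -0.03 over 63 genes, with 1 at least 1.5-fold higher and 5 lower. MRPL3 had 35.5 and 61.2 FPKM and MRPL24 had 19.4 and 9.89 FPKM at the ends of that list. Cytosolic ribosomal proteins, like the chain a group of short and abundant transcripts, had a median of -0.04 over 47 genes. The only one past 1.5-fold was RPS7, named after its values were seen, which with 0.199 and 1.04 FPKM passed the minimum through the affected library alone. RPS28, within 1.5-fold, had 971 and 1361 FPKM, and RPL10A had 391 and 300.2 FPKM.

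The assembly factors outside the NDUFAF family were spread to both sides. For complex IV 14 genes were used, with a median of 0.03 and 2 genes at least 1.5-fold lower, COA3, named after its values were seen, with 74.2 and 36.9 FPKM and COA4 with 12.5 and 5.65 FPKM, while the copper protein SCO2 had 13.8 and 16.8 FPKM. For complexes I, II, III and V 10 genes were used, with a median of 0.04. TTC19, needed for the Rieske step of complex III, had 34.1 and 69.7 FPKM, and ATPAF2, which assembles the head of the ATP synthase, had 7.69 and 3.87 FPKM. Of those 10 genes 2 were higher and 1 was lower by 1.5-fold.

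Fuel pathways held genes on either side as well. Tricarboxylic acid cycle and pyruvate dehydrogenase genes had a median of -0.10 over 17 genes, with fumarase FH at 45.3 and 28.3 FPKM, and 1 gene past 1.5-fold upward and 2 downward. Fatty acid oxidation genes had a median of -0.14 over 15 genes, with ECHS1 at 48.0 and 74.0 FPKM and ACADVL at 63.8 and 38.2 FPKM, and 2 past that fold upward and 3 downward. Glycolysis genes had the highest median, 0.28 over 10 genes, and 8 of them were higher in the affected cat. HK1, the first enzyme of the pathway, had 18.02 and 37.49 FPKM, and ENO1 went against the list with 461 and 260.1 FPKM. The background of loci higher in the affected cat was 49.7%, and 2 of the glycolysis genes were past 1.5-fold upward and 1 downward.

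Regulators and partners of mitochondria were as mixed. Biogenesis regulators and genes for the upkeep of the mitochondrial genome had a median of -0.20 over 16 genes, or -0.10 over those with a mean of at least 5 FPKM, with 3 at least 1.5-fold higher and 1 lower. POLG2, a subunit of the mitochondrial DNA polymerase, had 8.10 and 16.9 FPKM, and GABPB1, part of a transcription factor of respiratory genes, had 10.04 and 6.01 FPKM. Import and inner membrane genes had a median of 0.11 over 18 genes, with the receptor TOMM20 at 84.7 and 196 FPKM and the chaperone TIMM8B at 109 and 44.0 FPKM, the only members of that list past 1.5-fold. Carriers and channels had a median of -0.02 over 7 genes, with the adenine nucleotide translocase SLC25A4 at 55.7 and 92.6 FPKM and UCP2 at 20.7 and 11.0 FPKM, and 1 past that fold upward and 2 downward.

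**Figure D5:**
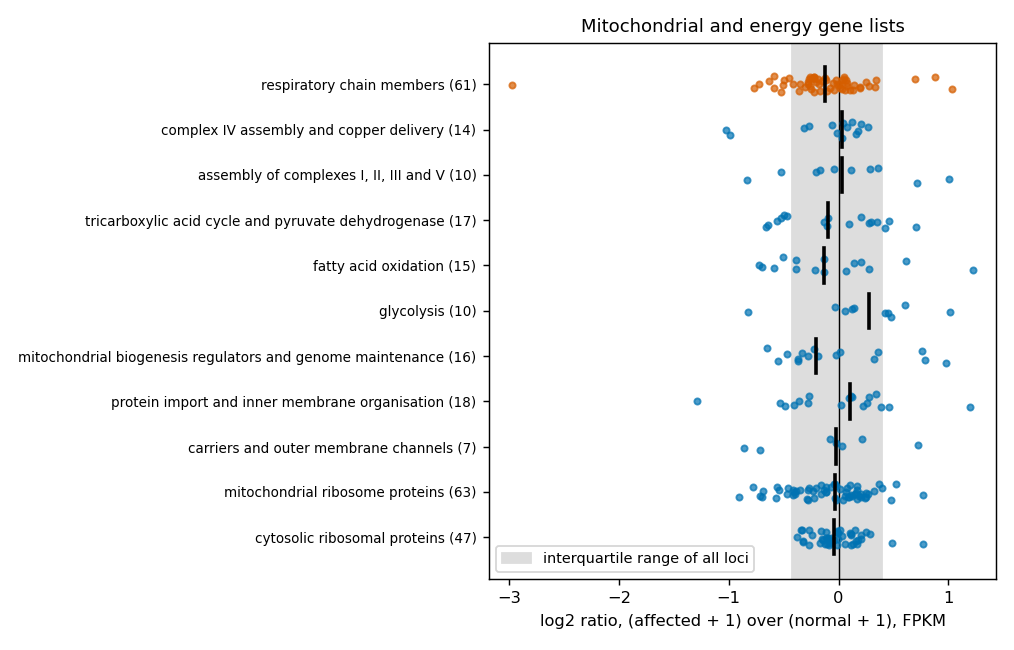
Log2 ratio of each gene (points, spread vertically only for legibility) and the median (black bar) for the respiratory chain members and for 10 lists of mitochondrial and energy genes, with the number of genes used in parentheses. The grey band is the interquartile range of all loci, and the medians lie between -0.20 for biogenesis regulators and 0.28 for glycolysis, with the respiratory chain at -0.12.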

How the data were processed

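Polyadenylated RNA was sequenced in 2 libraries, 1 per condition, with groups taken from the sample labels. The deposited values are FPKM per locus, which the authors calculated with Cufflinks 2.1.1 after TopHat2 2.0.9 alignment to felCat5 with Ensembl gene predictions. Scaling between libraries and strand use are not given in the sources used here. FPKM of short transcripts depend on the effective length assumed, so levels of small subunits are less certain. Tests for counts do not apply to FPKM, and a single library in each condition allows no p-value.

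Log2 ratios used a pseudocount of 1 FPKM, which understates differences of low loci, and loci with at least 1 FPKM in a library. Start coordinates, which begin at 0 in the table, were raised by 1. Members, lists and thresholds were chosen with earlier results of these data known, and the hypoxia list and the roles of members after values were seen. Named members were, by complex, the highest mean, the 3 highest and lowest log2 ratios at a mean of at least 5 FPKM, all past 1.5-fold, isoforms, core subunits and those listed at 0. From each pathway list the highest and lowest ratio at that mean were named, and from marker lists the highest mean, and further genes where stated. Values of other members complete the groups, and some genes that the rule names are not reported here. Fragments per FPKM came from steps of low values at unnamed loci, where 96.9% of 1499 values in the normal and 96.3% of 1177 in the affected library lay within 0.03 of a whole number, against 6% by chance.

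Marker lists were skeletal muscle, smooth muscle, pericytes, photoreceptors, ciliary epithelium, pigment cells, corneal and conjunctival epithelium, macrophages and leukocytes, red blood cells and vascular endothelium. A RefSeq gene table of a later cat assembly was not used. Fold calls and the fragment step were tested on simulated data. Python 3.11.15, numpy 2.4.6, pandas 2.3.3, scipy 1.17.1 and matplotlib 3.10.9 were used. Alternatives were another pseudocount, 2 rescalings, 2 filters, summed rows, removal of members listed at 0 and of the 10 highest loci from the library sum, and, after the data were seen, other complex assignments and removal of members that overlap another locus or of NDUFA1.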

Additional observations from a re-analysis of the deposited data

How the results depend on the processing

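The median log2 ratio of the members stayed below 0 under all 9 alternatives, between -0.18 and -0.11. Of 141 values recomputed for medians, counts and library shares, 134 moved by less than 0.1 on the log2 scale or by at most 1.5 times and 7 moved by more. With no filter the complex IV median was -0.075 and 5 members were 1.5-fold higher, because COX6A2 and COX6B2 then entered. The count of members at least 2-fold higher was 2 with a pseudocount of 0.1, where NDUFAF6 reached 1.01. It was 0 when each library was scaled to 1000000 FPKM in total and with the affected library divided by the median ratio of 1.03. It was also 0 without the 19 members that overlap another named locus, and 13 members were then higher and 30 lower. The rescalings left 17 and 18 members higher. They moved the median of all loci by -0.05 and -0.03. The NDUFA4 pair counted with complex IV gave medians of -0.08 for complex I and -0.26 for complex IV. No name stood on more than 1 row, so summed rows changed nothing. Signs of 11 of 192 values recomputed for single members changed, all of them within 0.1 of 0. Without the 10 highest loci in the library sum, the members held 1.70% of the normal and 1.37% of the affected library. Depth limits little here except for NDUFAF genes. No paired analysis was possible because a single cat stands for each condition.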

Other observations

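Joined rows held further subunits that were not counted as members. The row that joins PDCD6 and SDHA, the flavoprotein of complex II, was at 68.0 FPKM in the normal cat and 82.6 FPKM in the affected cat, and the row that joins ALDH3B1 and NDUFS8, a core subunit of complex I, was at 70.6 and 76.3 FPKM. Which share of these values belongs to SDHA or NDUFS8 was not analysed here. Of 76 usual nuclear subunits and cytochrome c, 49 stood under a single name, and these were 25 of 37 for complex I, 8 of 9 for complex III, 4 of 10 for complex IV and 10 of 15 for complex V. CYCS, SDHD and UQCR11 were not analysed here.

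The mitochondrial part of the chain could not be set beside the nuclear part. All 9 rows on the mitochondrial sequences, among them those that name MT-ND1, MT-CO1, MT-ATP6 and MT-CYB, are listed at 0 in both libraries. These genes are transcribed in nucleated cells, so the listed 0 is not read as absence. GAPDH and LDHB, of the glycolysis list, and MPC1, of the carrier list, are likewise listed at 0 in both cats.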
